A study of Mus musculus with 4 samples.

Results

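The arrays compared here are those labelled H-RasV12 and c-Myc, set directly against each other without the non-transformed array as a go-between. They are 2 of the 4 arrays of the series, and each group holds 1 array. The rule took every probe set that the platform annotation ties to a single gene, which gave 34945 of 45101 probe sets and 18193 genes. Signals under 20% of an array's trimmed mean (a floor of 100.001) were set to that floor, the log2 was taken, and the value on the array labelled c-Myc was subtracted from that on the array labelled H-RasV12. The brightest probe set stood for a gene, and 10274 genes had a signal above the floor on at least 1 of both arrays. These are called measured below.

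H-Ras is a small GTPase that relays growth factor signals through RAF and MEK to the kinase ERK, and the V12 form stays bound to GTP. ERK output includes immediate-early and AP-1 factors, ETS factors, ligands of the EGF receptor, and phosphatases that switch the pathway off again. c-Myc is a transcription factor that pairs with MAX on E-box sequences and is known for raising ribosome production, nucleotide synthesis and cell-cycle entry. Both are classic liver oncogenes, and fetal liver progenitors can form hepatocytes as well as bile duct cells.

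By the labels, all 4 cultures were p53-/- mouse fetal liver progenitor cells. One was non-transformed, and the others were transformed with H-RasV12, with myr-Akt (the kinase AKT carrying a myristoyl group, which holds it at the membrane) or with c-Myc. All grew in a medium with 10% serum, dexamethasone, EGF and HGF, so the ligands of the EGF and MET receptors were supplied to every culture. The vector, the promoter driving each oncogene, the number of clones or animals and the age of the embryos were not stated in the labels. With 1 array a side there was no spread between cultures to set a difference against, no test was made, and a batch cannot be told apart from the oncogene. Genes above the floor numbered 9927 on the array labelled H-RasV12 and 9492 on that labelled c-Myc. Ratios of 5' over 3' control signal for beta-actin were 0.907 and 0.870. Wherever 4 signals follow each other, they are MAS5 intensities of the non-transformed, H-RasV12, myr-Akt and c-Myc arrays, in that order. Where 1 of both arrays was at the floor, the fold is a lower bound and is given as at least so many fold.

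The oncogenes themselves were looked at first. Myc had signals of 2285, 1747, 639.7 and 421, so the array labelled c-Myc held the lowest of the 4 and the array labelled H-RasV12 was 4.15 times above it. Myc was measured by 1 probe set, and the labels do not state whether it can detect the introduced sequence. If it can, the signal goes against the label. If it cannot, it reports the cells' own gene and checks nothing. Akt1, a gene of the kinase used in the myr-Akt culture, had 2760.3 against 2991, within 2-fold. Hras was not analysed here. Every direction below therefore rests on the labels.

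At a threshold of 2-fold, 936 genes were higher on the array labelled H-RasV12 and 546 were lower, which is 9.11% and 5.31% of the genes measured, while 8792 lay within 2-fold. Counted over single-gene probe sets, 1424 of 18223 were higher (7.81%) and 919 lower (5.04%). Differences of at least 4-fold were found for 307 higher and 126 lower genes, of at least 8-fold for 115 and 35, and of at least 16-fold for 33 and 11. The excess of higher genes lay partly at the floor: 328 of the 936 were at the floor on the array labelled c-Myc, against 112 of the 546 at the floor on the other, and among genes above the floor on both arrays the counts were 608 and 434. The median difference over all genes measured was -0.02 on the log2 scale, with quartiles at -0.34 and 0.34.

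**Figure D1:**
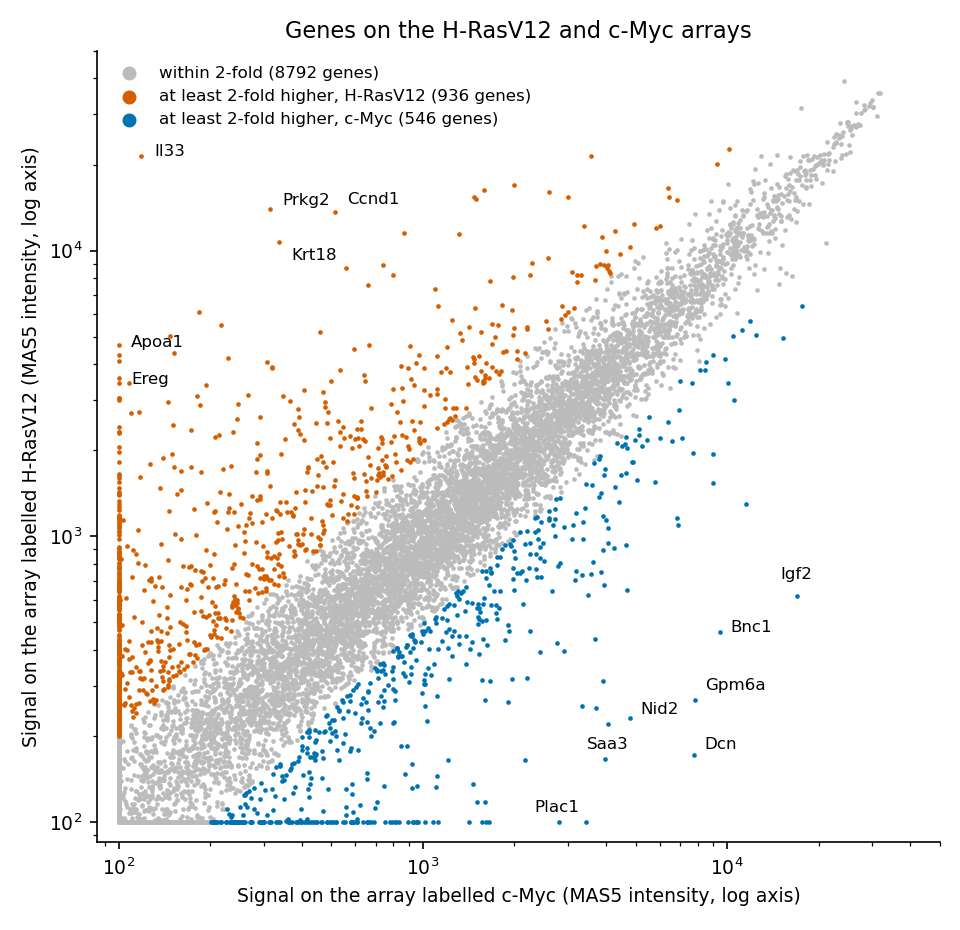
Signal of each measured gene on the array labelled c-Myc (x axis) and on the array labelled H-RasV12 (y axis), both as MAS5 intensity on log axes and floored at 100.001. Orange points are the 936 genes at least 2-fold higher on the array labelled H-RasV12, blue points the 546 at least 2-fold lower and grey points the 8792 within 2-fold; among genes above the floor on both arrays, Il33 and Prkg2 lie farthest to one side, Dcn, Gpm6a and Igf2 to the other.

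Probe sets of the same gene gave a measure of probe error, though not of the spread between cultures. Of the 1482 genes past 2-fold, 643 had a further measured probe set, and for 627 of them it differed in the same direction. It was at least 2-fold apart the same way for 387 and the other way for 1. Among genes named below, it was under 2-fold for Emp1 (0.84 against 3.96 on the log2 scale), Etv4 (0.94 against 3.55), Rsad2 (0.83 against 2.80) and Slc40a1 (-0.61 against -2.10). The same held for Igfbp7, Rgs5, Flt1 and Hoxa9, among others. Across 4073 genes with a pair of probe sets above the floor on both arrays, the log2 differences of the pair were 0.21 apart at the median and 0.62 at the 90th percentile. In 98.2% of these pairs the gap was under 1, which is 2-fold.

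The largest difference of all was that of Il33, which encodes a nuclear alarmin cytokine. Il33 had signals of 8515, 21389.5, 767 and 119, a difference of 180.0-fold. The signal was highest with H-RasV12, next in non-transformed cells and close to the floor on the array labelled c-Myc. Prkg2, a cGMP-dependent protein kinase, had signals of 5433, 13948, 206 and 313 and was 44.5-fold higher, with 5.32 on the log2 scale by its next probe set against 5.48 by the brightest. Krt18, a keratin of simple epithelia, had 3689.7, 10745, 321 and 337 and was 31.9-fold higher. For all 3 genes non-transformed cells came next after H-RasV12, and both other arrays were far lower.

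Cthrc1, a secreted protein of remodelling matrix, was 34.2-fold higher on the array labelled H-RasV12, with signals of 6392, 5029.5, 843 and 147. Mdk, the heparin-binding growth factor midkine, was 31.9-fold higher with 2069, 3451, 502 and 108, and Clca3a1 was 33.2-fold higher. Sorbs2, an adaptor of actin and adhesion sites, was 25.4-fold higher, the proprotein convertase gene Pcsk6 18.4-fold, the prostaglandin transporter gene Slco2a1 17.6-fold and the tetraspanin gene Tspan8 17.2-fold. Gfpt2, an enzyme of hexosamine synthesis, was 23.3-fold higher. Ctsc, the protease cathepsin C, was 28.7-fold higher by its brightest probe set and showed a log2 difference of 0.15 by the next, so its probe sets disagreed in size. Among genes at the floor on the array labelled c-Myc, Ank, a pyrophosphate transporter, was at least 46.7-fold higher with 1165, 4668, 406 and 75, and Plac8 at least 40.9-fold.

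At the other end stood Dcn, the gene of decorin, a small proteoglycan on collagen fibrils. Dcn had signals of 10469, 172, 9524 and 7765, so it was 45.1-fold lower on the array labelled H-RasV12, the lowest of the 4 by far. Its next probe set was dim and gave -0.32 on the log2 scale. Igf2, the fetal insulin-like growth factor, had 3975, 621, 8384 and 16943 and was 27.3-fold lower. The array labelled c-Myc was the highest of the 4 for Igf2 and the array labelled H-RasV12 the lowest, and the next probe set gave -1.48 against -4.77.

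Gpm6a, a membrane glycoprotein, was 29.3-fold lower with signals of 4314, 268, 6812 and 7852, and its next probe set gave -4.92 against -4.87. Nrep was 23.8-fold lower, the basement membrane gene Nid2 20.6-fold, the zinc finger factor gene Bnc1 20.5-fold and the acute-phase gene Saa3 18.3-fold. Smpdl3b, a membrane phosphodiesterase, was 14.8-fold lower with 184, 251, 2100.5 and 3709.8. The folate receptor gene Folr1 was 13.1-fold lower, Plxdc2 13.6-fold, Ypel2 13.1-fold and Prr15 12.8-fold. The next probe set of Prr15 gave -0.19 on the log2 scale against -3.68. Rspo1, which amplifies WNT signals, was at least 34.3-fold lower with 3676, 79.8, 1101 and 3428, Plac1 at least 28.1-fold, Lrrn4 at least 16.4-fold and Ppfibp2 at least 15.6-fold. Smpdl3b and Plac1 were low in non-transformed cells and with H-RasV12 and high in both other cultures, whereas Dcn, Gpm6a and Rspo1 were low with H-RasV12 alone.

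Counts for 51 gene lists are given with the share over all measured genes as background. A member that was above the floor on 1 array only entered through the array where it was high, and its direction was fixed by that. For lists with many such members, the counts among members above the floor on both arrays are therefore given too.

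**Figure D2:**
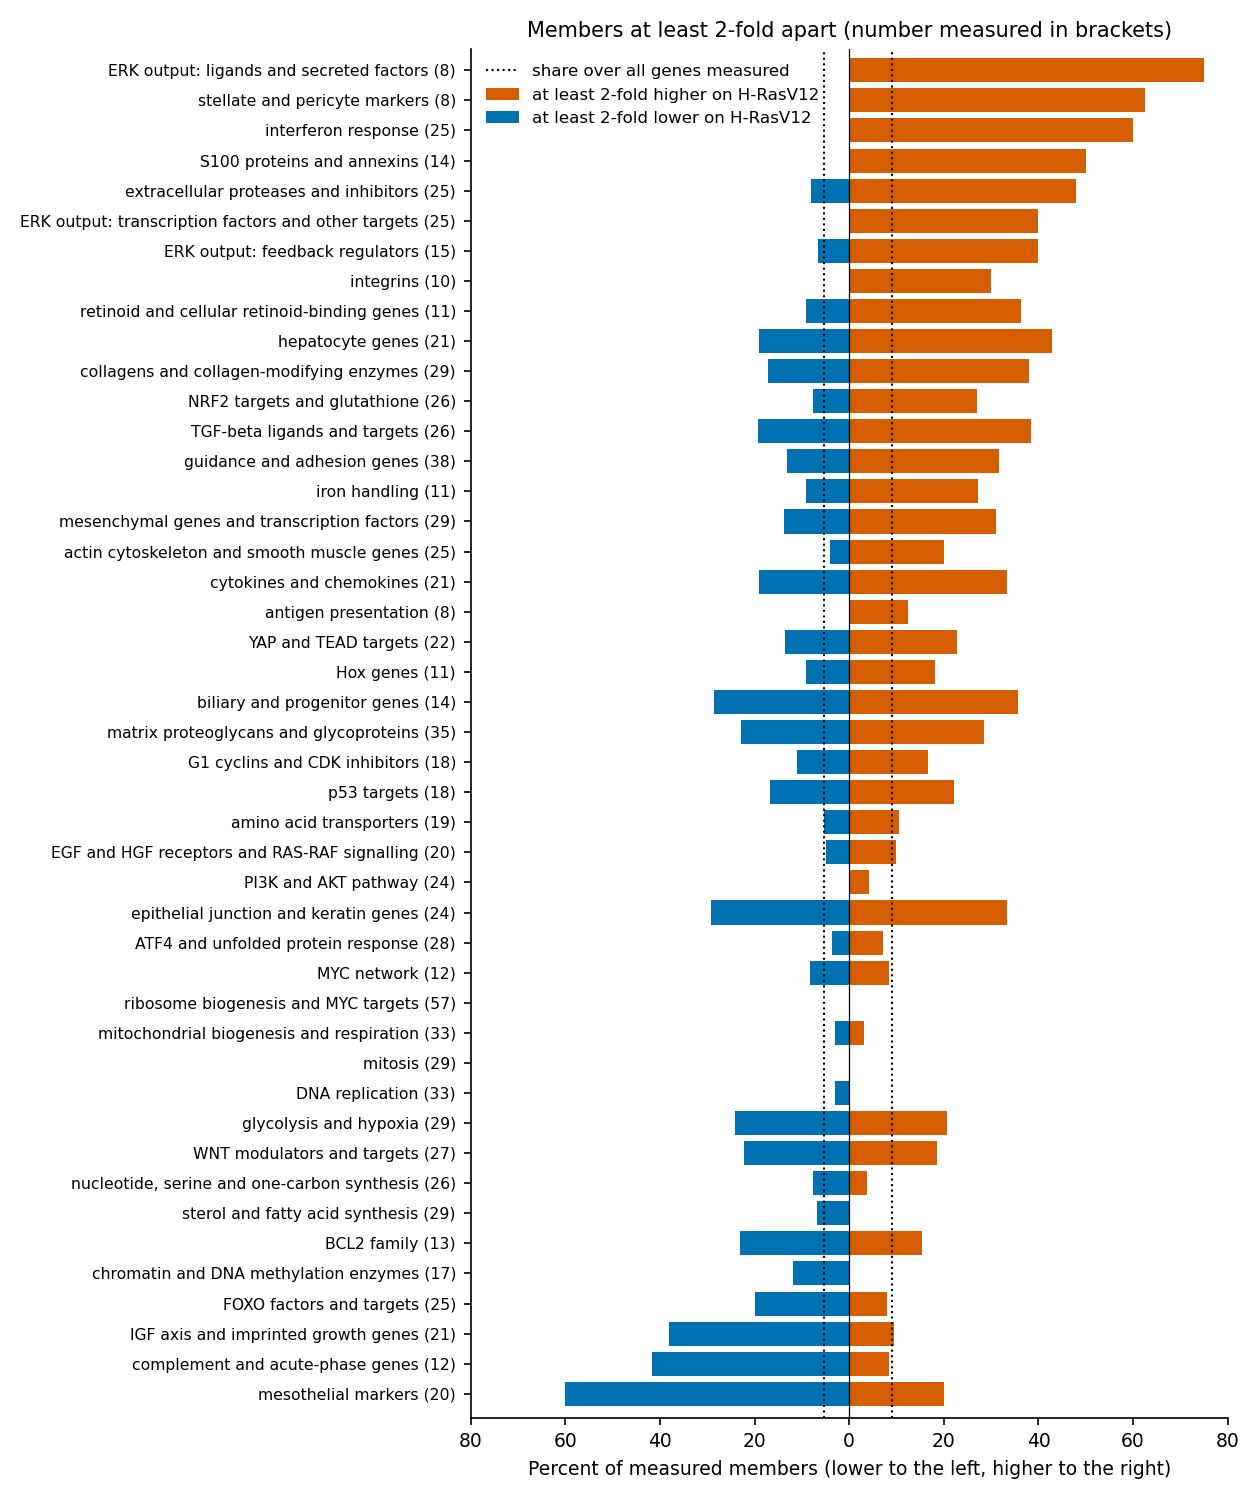
Percent of the measured members of each list with at least 8 of them that were at least 2-fold higher (orange, to the right) or lower (blue, to the left) on the array labelled H-RasV12 than on that labelled c-Myc; dotted lines mark the shares over all genes measured, 9.11% and 5.31%. ERK ligands head the plot with 6 of 8 higher, and mesothelial markers close it with 12 of 20 lower. Among members above the floor on both arrays these were 1 of 3 and 9 of 15.

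Genes of ERK output were taken in 3 lists. Among ligands and secreted factors, 6 of 8 measured members were higher and 0 lower, of 13 with a single-gene probe set, and the median log2 difference was 2.18. Of the 3 above the floor on both arrays, 1 was higher. Ereg, the EGF receptor ligand epiregulin, had signals of 1731, 3589, 118 and 49 and was at least 35.9-fold higher. Hbegf, a further ligand of that receptor, had 5495, 8072, 1599 and 1979, a difference of 4.08-fold that its next probe set gave as 2.31 on the log2 scale against 2.03. Il11, a cytokine of the IL-6 family, had 1169, 1399, 17.2 and 3.4 and was at least 14-fold higher. The non-transformed array was high along with H-RasV12 for these 3 genes. Btc, which encodes betacellulin, had 139.5, 583, 98.4 and 33.8 and was at least 5.83-fold higher, and here the non-transformed array lay near the floor. The stromelysin gene Mmp10 was at least 5.02-fold higher and Tgfa, which encodes TGF-alpha, at least 2.21-fold. Vegfa and Lif lay within 2-fold.

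Feedback regulators dampen the pathway that induces them. Of 15 measured, 6 were higher and 1 lower, with a median of 0.81, and of 12 above the floor on both arrays 5 were higher and 0 lower. Dusp4, a nuclear phosphatase of ERK, had signals of 5569.5, 11525, 333 and 866 and was 13.3-fold higher. Dusp6, the cytoplasmic ERK phosphatase, had 9169, 12162, 1314 and 3377 and was 3.60-fold higher. Errfi1, an inhibitor of the EGF receptor kinase, had 2894, 7326, 1343 and 1092 and was 6.71-fold higher. In all 3 cases the array labelled H-RasV12 was the highest of the 4, with non-transformed cells next. Spred3 was at least 3.34-fold higher, Dusp5 2.08-fold, and Rasa1, a GTPase-activating protein of RAS, 2.10-fold. The Sprouty genes stayed within 2-fold, with log2 differences of 0.90 for Spry2, 0.65 for Spry4 and 0.23 for Spry1. Dusp8, which acts mainly on JNK and p38, was at least 3.31-fold lower.

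Transcription factors and other ERK targets had 10 of 25 measured members higher and 0 lower, and 8 of 23 with both signals above the floor, while the median was 0.26. Ccnd1, which encodes cyclin D1, had signals of 7334, 13638, 517 and 514 and was 26.5-fold higher, at 4.73 on the log2 scale by both of its leading probe sets. Fosl1, the AP-1 subunit FRA1, had 1463, 2947, 284 and 145 and was 20.3-fold higher, while a dimmer probe set that was not above the floor on both arrays gave 2.51 against 4.35. Hmga2, a chromatin protein of fetal and transformed cells, had 9738, 15118, 784 and 1492 and was 10.1-fold higher. These genes were high in non-transformed cells and with H-RasV12 and low with both myr-Akt and c-Myc. Emp1, a membrane protein, was 15.6-fold higher, the ETS factor gene Elk3 10.6-fold, the ETS factor gene Etv4 at least 11.7-fold, Etv5 6.71-fold, Cd44, a hyaluronan receptor, 10.5-fold and Rasgef1b at least 6.63-fold. Immediate-early genes, singled out after their values were seen, showed no such gap: Egr1 had 13222 against 13204, Fos had 10022 against 11092, and Jun had 2757 against 3476.

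**Figure D3:**
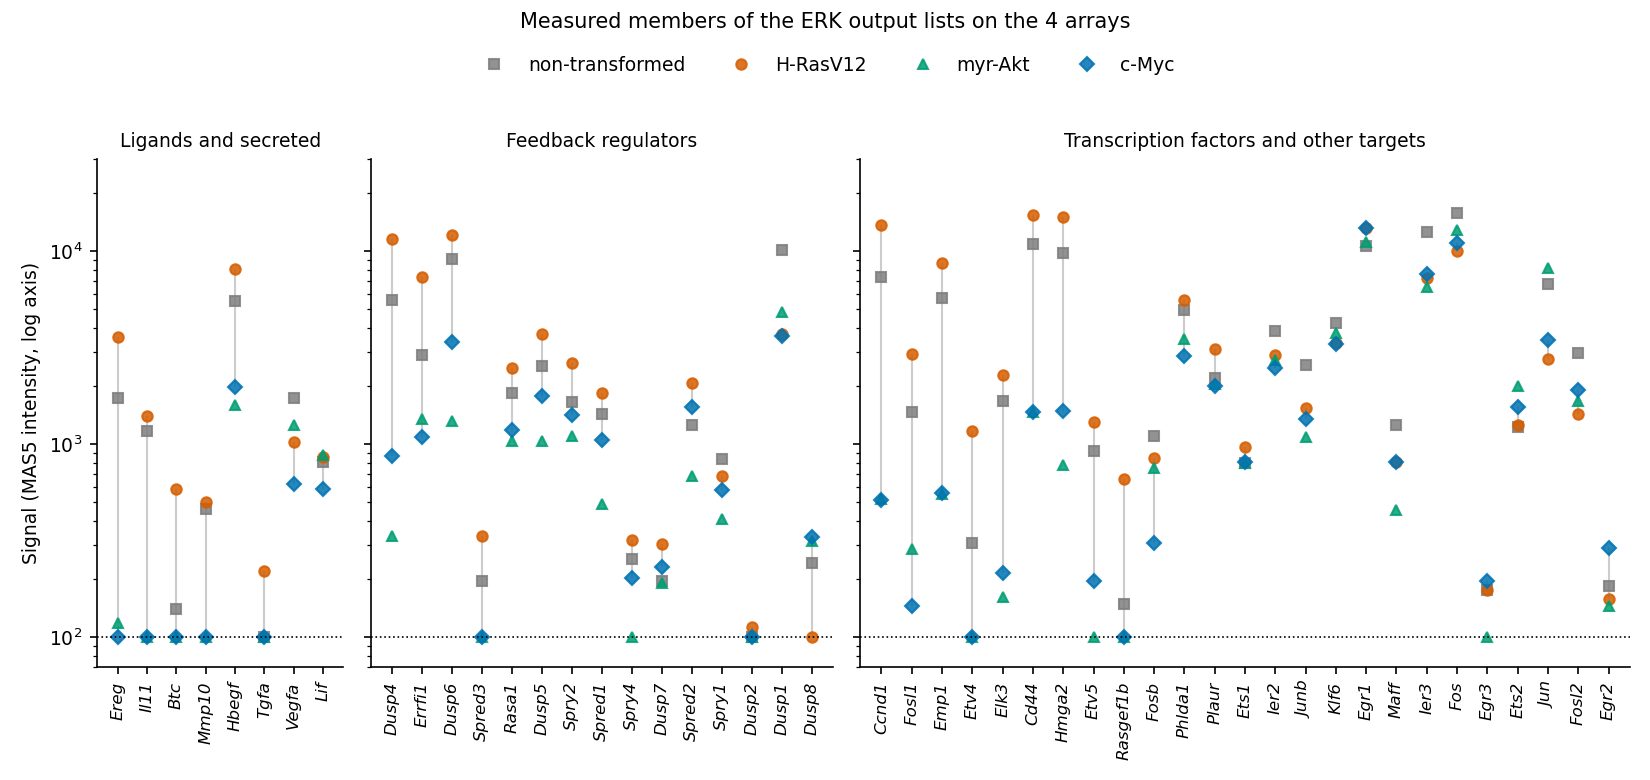
Signal of every measured member of the 3 ERK output lists on the 4 arrays (y axis, MAS5 intensity, log axis, floored at 100.001 along the dotted line), ordered within each list by the difference between the arrays labelled H-RasV12 and c-Myc, which a grey line joins. Members at the left of each panel have orange circles far above blue diamonds, with the grey square of non-transformed cells near the orange, while Egr1, Klf6 and Dusp1 have both at one level.

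Since these genes stood high together, the 250 bases before their transcription starts were searched in the RefSeq promoter table of build GRCm38.p6. Searched for on both strands, each separately, were TGANTCA (AP-1), CCGGAA (ETS) and CACGTG (the E-box bound by MYC and MAX). Of the 22 members of the ERK lists at least 2-fold higher, 16 had a promoter in the table, and 3 of these held TGANTCA, 1 CCGGAA and 0 CACGTG. Over all promoters in the table, each counted by itself, 6.75% held TGANTCA, 12.0% CCGGAA and 6.02% CACGTG. Counted per gene with a match in any promoter, as for the 16, the shares of all measured genes were 5.05%, 26.8% and 10.4%. Shown are the 250 bases before the starts of the pair of AP-1 matches with the largest differences and of the ETS match, 5' to 3' on the gene's strand, with the matched letters in capitals. Emp1 lies at chr6:135362681-135362930 on the plus strand, Il11 at chr7:4778142-4778391 on the minus strand and Rasa1 at chr13:85289487-85289736 on the minus strand.
Emp1: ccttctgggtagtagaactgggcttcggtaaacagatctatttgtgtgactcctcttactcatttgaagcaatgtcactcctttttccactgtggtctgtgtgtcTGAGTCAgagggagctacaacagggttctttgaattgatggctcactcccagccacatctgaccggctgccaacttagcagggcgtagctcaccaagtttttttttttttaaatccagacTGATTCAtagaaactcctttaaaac
Il11: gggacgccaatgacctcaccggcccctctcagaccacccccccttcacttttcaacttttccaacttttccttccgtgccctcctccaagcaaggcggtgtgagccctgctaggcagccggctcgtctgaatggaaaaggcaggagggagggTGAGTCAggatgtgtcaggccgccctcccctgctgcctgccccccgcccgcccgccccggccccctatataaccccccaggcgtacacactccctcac
Rasa1: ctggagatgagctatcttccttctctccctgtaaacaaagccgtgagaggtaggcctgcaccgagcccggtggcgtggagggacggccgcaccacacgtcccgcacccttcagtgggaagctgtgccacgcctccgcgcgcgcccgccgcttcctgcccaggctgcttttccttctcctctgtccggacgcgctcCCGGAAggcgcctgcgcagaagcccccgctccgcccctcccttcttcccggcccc
The AP-1 letters began at -145 and -25 from the start of Emp1 and at -98 from that of Il11, and the ETS letters at -55 from that of Rasa1. Emp1 and Il11 each had 2 promoters in the RefSeq table, and only the promoter shown held the letters. The third AP-1 match was in the promoter of Mmp10, at -63. Each is a match of letters and was not tested as a binding site. Among all genes higher on the array labelled H-RasV12, 77 of 744 with a promoter held TGANTCA (10.3%), against 22 of 414 lower genes (5.31%) and 425 of 8410 measured genes (5.05%). CACGTG was found for 50 of the 744 higher genes (6.72%), 60 of the 414 lower genes (14.5%) and 871 of the 8410 measured genes (10.4%). CCGGAA was found for 15.5%, 14.5% and 26.8% of the same groups. No test was made of these shares, and promoters differ in base composition.

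Upstream of ERK, among the receptors and the RAS-RAF components, 2 of 20 measured members were higher and 1 lower, shares near those over all genes, with a median of 0.28. Rasa3, a GTPase-activating protein, was 4.18-fold higher with 614, 1099, 244 and 263, and the scaffold gene Ksr1 was 2.48-fold higher. Mras, a relative of RAS, was 2.56-fold lower with 538, 174, 300.1 and 445. The receptor genes Egfr and Met had log2 differences of 0.17 and -0.79, and Hgf, Egf, Erbb3 and Erbb4 were at the floor on both arrays. The PI3K and AKT pathway had 1 of 24 members past 2-fold: Trib2, a pseudokinase, was 5.67-fold higher.

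On the MYC side, 12 of 14 members of the MYC network were measured, with 1 higher, 1 lower and a median of -0.29. Myc itself was the member that was higher. Mxd4, a repressor that competes for MAX, had signals of 896, 342, 269.6 and 738 and was 2.16-fold lower on the array labelled H-RasV12, which a pseudocount or the mean over its probe sets put just under 2-fold. Max had 473, 521, 651 and 772, and Mnt, another partner of MAX, had 1425, 1754, 1721 and 2708, with log2 differences of -0.57 and -0.63. Both were highest on the array labelled c-Myc. Mxi1 was at -0.80, Mlxip at -0.91, Mxd3 at -0.35, Mxd1 at -0.22, Mga at -0.22, Zbtb17 at 0.04 and Mlx at 0.21, all within 2-fold. Mycn was bright and level by its brightest probe set, with 23651 against 23749.6, but its next probe set gave -1.16 on the log2 scale, so the probe sets disagreed. Mycl and Mlxipl were at the floor on both arrays.

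Genes of ribosome biogenesis and other MYC targets differed by small amounts in one direction. None of 57 measured members passed 2-fold, yet 51 of them were lower on the array labelled H-RasV12, with a median of -0.34 against -0.02 over all genes and a range from -0.86 to 0.24. Npm1, the nucleolar chaperone nucleophosmin, had signals of 16365, 21612, 24960.0 and 23923, and Eif4a1, the helicase of translation initiation, had 18857, 22966, 23898 and 22242. At the lower end, named after their values were seen, were Polr1b, a subunit of RNA polymerase I, with 431, 773, 1106 and 1401, and the processome gene Utp15 with 522, 726, 1274 and 1279. For Polr1b the array labelled H-RasV12 lay between non-transformed cells, which were lowest, and the array labelled c-Myc, which was highest. The list as a whole ranked otherwise. Its summed signals were 234085, 329890, 396996 and 377112, highest on the array labelled myr-Akt, as were Npm1 and Eif4a1. The median of the list was negative under every processing alternative tried, scaling included. Of 52 members with a promoter in the RefSeq table, 10 held CACGTG (19.2%) and 18 held CCGGAA, against 10.4% and 26.8% of the measured genes.

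Nucleotide, serine and one-carbon synthesis had 1 of 26 measured members higher and 2 lower, with a median of -0.14. Shmt1, which makes one-carbon units from serine in the cytosol, had 263, 608, 689 and 1593 and was 2.62-fold lower, and Prps2, which makes the ribose donor of nucleotides, was 2.27-fold lower. Gldc, the glycine cleavage enzyme, was at least 6.64-fold higher.

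Genes of DNA replication and mitosis differed by small amounts, mostly below 0. The median over DNA replication genes was -0.24, against -0.02 over all genes. Of 33 members, 31 were lower by any amount, of which E2f2 alone passed 2-fold. E2f2, an activator of S-phase genes, had signals of 83.2, 161, 599 and 376 and was 2.33-fold lower, which a higher floor, a pseudocount or the mean over probe sets each put under 2-fold. Mitosis genes had a median of -0.18 with 25 of 29 lower and 0 past 2-fold, among them Top2a with 6109.6, 7904, 9259.5 and 9319.9 and Ube2c with 10276, 11999.9, 11624 and 10991. Both medians were negative under every alternative tried. The G1 cyclins and CDK inhibitors differed both ways instead, with 3 of 18 higher and 2 lower around a median of -0.04 and a mean of 0.36. Besides Ccnd1, Cdkn1a, the CDK inhibitor p21, was at least 5.85-fold higher with 455, 586, 205 and 60.3, and Cdkn2b, the inhibitor p15, was 3.82-fold higher with 4539, 4598, 1162 and 1203. The inhibitor gene Cdkn1c was at least 4.67-fold lower with 103, 91.1, 1016 and 467, and Rb1 was 2.37-fold lower.

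**Figure D4:**
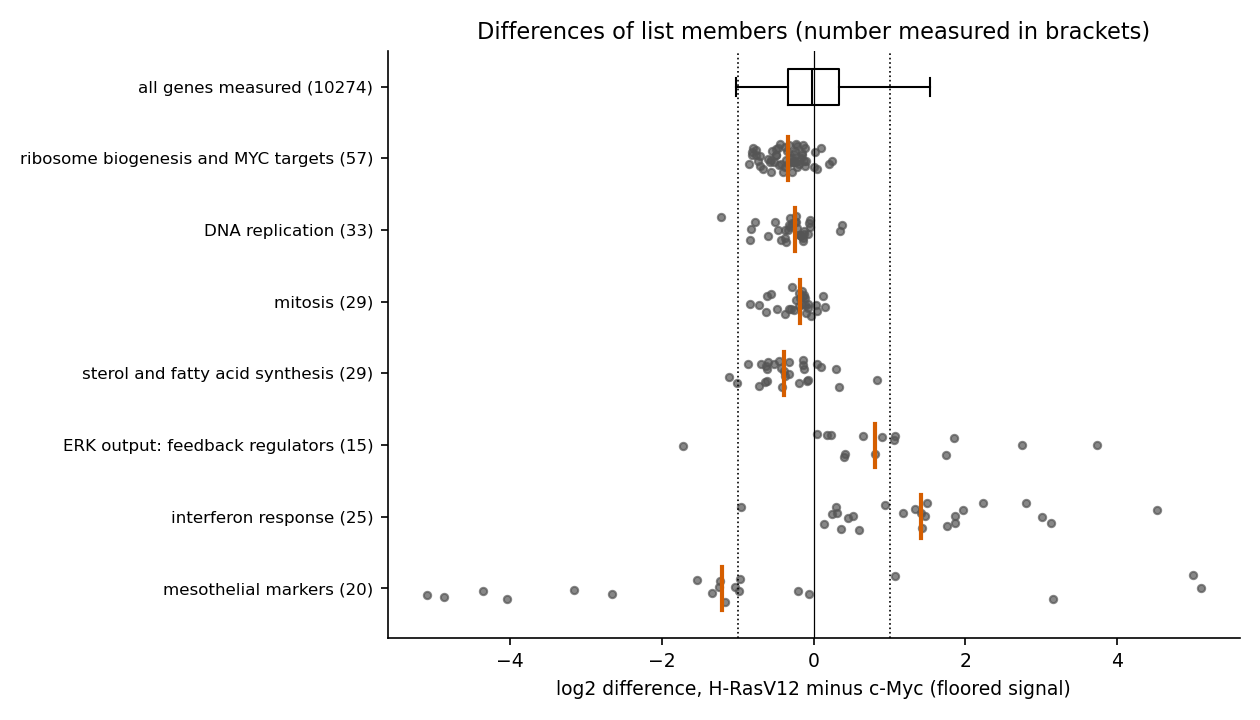
The log2 difference of each measured member of 7 lists (x axis, array labelled H-RasV12 minus array labelled c-Myc, points) with the list's median as an orange bar; the box at the top holds the quartiles of all 10274 genes measured with whiskers at their 5th and 95th percentiles, and dotted lines mark 2-fold. Ribosome, replication, mitosis and sterol genes cluster just left of 0, with medians of -0.34, -0.24, -0.18 and -0.39, while the ERK feedback, interferon and mesothelial lists spread widely, with medians of 0.81, 1.42 and -1.20.

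In metabolism, sterol and fatty acid synthesis had the lowest median, -0.39, against -0.02 over all genes. On the array labelled H-RasV12, 24 of 29 members were lower by any amount and 2 past 2-fold. These were Fads2, a fatty acid desaturase, with 2670.5, 1124, 2957 and 2438, and Stard4, a cholesterol carrier, with 1077, 906, 2264 and 1823. Glycolysis and hypoxia genes split, with 6 of 29 higher and 7 lower. Hk1, a hexokinase, had 1514, 1883, 319 and 140.1 and was 13.4-fold higher, Pfkfb4 was 8.06-fold higher and the enolase gene Eno3 3.64-fold. Aldoc, an aldolase, had 401, 398, 1722 and 2911 and was 7.31-fold lower, the oxygen sensor gene Egln3 was 3.05-fold lower, Ndrg1 3.02-fold and Ldhb 2.98-fold. Pfkfb3, a relative of Pfkfb4 that makes the same regulator of glycolysis, was 2.21-fold lower, so this pair differed in opposite directions. Mitochondrial genes had 1 of 33 members past 2-fold each way, and both were coactivators: Ppargc1b had 145, 134, 908 and 957 and was 7.12-fold lower, while Ppargc1a was at least 2.42-fold higher.

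NRF2 targets, which guard against oxidative stress, had 7 of 26 higher and 2 lower, with a median of 0.40. Akr1b8 had 1817, 2626, 583 and 392 and was 6.70-fold higher, and the carbonyl reductase gene Cbr3 had 1025, 1215, 1689 and 239 and was 5.08-fold higher. Srxn1, which repairs peroxiredoxins, had 1054, 1218, 1661 and 357 and was 3.41-fold higher. For Cbr3 and Srxn1 the array labelled c-Myc was the lowest of the 4 and that labelled myr-Akt the highest. The glutathione transferase genes Gstm1 and Gstm2 went the other way, 3.52-fold and 2.90-fold lower, whereas Gsta4 was 3.30-fold higher. Akr1b8 and the glutathione transferase genes have close paralogues, and their values are uncertain to that extent. The ATF4 and unfolded protein response list stayed near level (median -0.07), with Atf3, a stress-induced factor, 6.17-fold lower and the cystine carrier gene Slc7a11 at least 2.43-fold higher. Iron handling had 3 of 11 higher and 1 lower, with a median of -0.32 and a mean of 0.04. Slc40a1, the iron exporter ferroportin, was 4.30-fold lower, and ceruloplasmin, from Cp, was 3.31-fold higher.

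Although all cultures lacked p53, genes known as its targets differed in both directions, with 4 of 18 higher and 3 lower. Pmaip1, the BH3-only protein NOXA, had signals of 456, 50.3, 1608 and 1609 and was at least 16.1-fold lower. Btg2, an antiproliferative gene, had 4196, 804, 3114 and 2831 and was 3.52-fold lower. Perp, a desmosome-associated membrane protein, was 4.65-fold higher and Phlda3, an inhibitor of AKT, 3.35-fold. Within the BCL2 family, the survival gene Bcl2 had 582, 1244, 145 and 176 and was 7.05-fold higher, while the BH3-only gene Bmf was at least 5.82-fold lower and its relative Bbc3 2.34-fold lower. The array labelled H-RasV12 was thus the highest of the 4 for Bcl2 and the lowest for Pmaip1, Bmf and Bbc3. FOXO factors and targets had 2 of 25 higher and 5 lower. Depp1 was at least 10.8-fold lower with 90.6, 59.4, 973 and 1081, Klf15 at least 3.85-fold, and the factor genes Foxo4 and Foxo3 2.91-fold and 2.27-fold. Pdk4, which restrains glucose oxidation, was at least 8.42-fold higher with 1300.4, 842, 45.1 and 57.8.

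Imprinted and IGF axis genes were often lower on the array labelled H-RasV12, at 8 of 21 measured members against 2 higher, although the median was 0.17 (mean -0.67). Besides Igf2 and Dcn, Dlk1, a Notch-like surface protein of fetal liver progenitors, had 117, 262, 145 and 1898 and was 7.23-fold lower. Igfbp2, a binding protein for IGFs, had 8260.5, 625, 4242 and 3485 and was 5.58-fold lower, and Cdkn1c, given above, is imprinted as well. Meg3, the non-coding RNA that is expressed from the other parental copy of the Dlk1 domain, went the opposite way, with 7749, 6401, 959 and 1122 and a difference of 5.71-fold. Igfbp7 was 2.87-fold higher. Oncofetal genes split, with Hmga2 and Afp higher and Plac1 and Gpc3, a glypican of fetal liver, lower by at least 28.1-fold and by 12.5-fold.

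Most hepatocyte markers were dim. Of 51 hepatocyte genes with a single-gene probe set, 30 were at the floor on both arrays, among them Apob, Fgb, Ahsg and Prox1, and 17 of the 21 measured were at the floor on 1. Alb, which encodes albumin, had signals of 3.7, 168, 19.8 and 26.6, so it was under the floor on every array except that labelled H-RasV12, and Hnf4a, a defining factor of hepatocytes, had 5.3, 169, 23.2 and 3.9. On the array labelled c-Myc 6 hepatocyte genes were above the floor, against 19 on that labelled H-RasV12. The gap between 19 and 6 rests largely on the 17 members detected by 1 array only. The 30 genes at the floor on both arrays are free of that selection. For most of the list, hepatocyte markers thus gave no signal above the floor that would bear out the label of fetal liver progenitors. Even where they were detected, Alb and Hnf4a were dim. Whether either culture matched that label was not tested. Apoa1, the main apolipoprotein of HDL, stood out with 638, 4299.7, 4.9 and 1.5, at least 43-fold higher, and its next probe set gave 5.35 against 5.43. Afp, which encodes alpha-fetoprotein of the fetal liver, had 13, 568, 43.6 and 6.4 and was at least 5.68-fold higher, and Ttr, a carrier of thyroid hormone, had 11.1, 476, 10.8 and 6.1 and was at least 4.76-fold higher. Non-transformed cells were under the floor for Alb, Hnf4a, Afp and Ttr alike. Rbp4 was at least 6.74-fold higher and Itih2 at least 6.52-fold. Lower were Gpc3, Dlk1, the haptoglobin gene Hp by at least 8.96-fold and Apoe by at least 3.72-fold.

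In counts, 9 of the 21 were higher and 4 lower, with a median of 0.91, and only 4 members were above the floor on both arrays, of which 1 was higher and 2 lower, with a median of -1.36. The direction of the list therefore depended on members that 1 array alone detected. The summed signal of the list was 14279 on the array labelled H-RasV12 and 9374 on that labelled c-Myc, with 9457 in non-transformed cells. A few genes made up much of these sums: Apoa1 held 4299.7 of that with H-RasV12, Gpc3 3904 and Dlk1 1898 of that with c-Myc. In RNA of a whole culture, fewer cells of a type and less RNA per cell cannot be told apart.

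Biliary and progenitor genes had 5 of 14 measured members higher and 4 lower, of 25 with a probe set. Sox9, a factor of bile duct progenitors, had 388, 779, 28.4 and 36.6 and was at least 7.79-fold higher. Ncam1, an adhesion molecule, had 3655, 2289, 403 and 395 and was 5.79-fold higher, and Krt19 and Cd24a were 2.10-fold and 2.08-fold higher. Lower were the water channel gene Aqp1, at least 5.47-fold with 5.8, 11.7, 148 and 547, the keratin gene Krt7, 3.09-fold, and the Notch targets Hey1 and Hes1, 3.60-fold and 2.70-fold. Epcam, Prom1 and Cftr were at the floor on both arrays by their brightest probe sets. A dimmer probe set of Epcam was above the floor on 1 array and gave 0.15 on the log2 scale.

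Epithelial junction and keratin genes were split as well, with 8 of 24 higher and 7 lower. Krt8, the partner of keratin 18, had signals of 601, 3441, 35.2 and 48.8 and was at least 34.4-fold higher, in parallel with Krt18. The desmosome gene Dsp was 3.85-fold higher, Cdh17 at least 3.85-fold and Cdh1, which encodes E-cadherin, at least 2.60-fold with 115, 260.2, 50.9 and 53.5. Krt14, a keratin of basal cells, had 38.5, 2.0, 248 and 675 and was at least 6.75-fold lower, and Cgn, which encodes the tight junction protein cingulin, had 122, 64.6, 541 and 777 and was at least 7.77-fold lower. Spint2, a protease inhibitor, was 3.30-fold lower and the polarity gene Pard6b 3.26-fold. The keratins past 2-fold thus divided, with Krt8, Krt18, Krt19 and Krt20 higher and Krt7 and Krt14 lower. Members above the floor on both arrays had 3 of 16 higher and 5 lower.

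The list with the lowest median of the 51 was that of mesothelial markers, genes of the cell layer that lines the liver's surface. Of 20 measured, 12 were lower and 4 higher, with a median of -1.20, and of 15 above the floor on both arrays 9 were lower and 3 higher (median -1.17). Upk3b, a uroplakin, had signals of 15167, 1299, 12838 and 11557 and was 8.90-fold lower. Wt1, the mesothelial transcription factor, had 3419, 1529, 3772 and 3438 and was 2.25-fold lower, and Podxl, which encodes podocalyxin, had 4831, 1095, 8536 and 6899 and was 6.30-fold lower, while its next probe set was dim and gave -0.48. For these genes 3 arrays were high and the array labelled H-RasV12 alone was low. Gpm6a, Bnc1, Lrrn4 and Rspo1, given above, are members too. Aldh1a1, a retinaldehyde dehydrogenase, was 2.91-fold lower and Upk1b 2.36-fold. The 4 that went the other way were Krt8, Krt18, Krt19 and Msln, the surface protein mesothelin, which had 7836, 3096, 238 and 348 and was 8.90-fold higher. The summed signal of the list was 44907 on the array labelled H-RasV12 and 83037 on that labelled c-Myc, with 107174 in non-transformed cells. Whether the cultures differed in the cells they held was not tested.

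**Figure D5:**
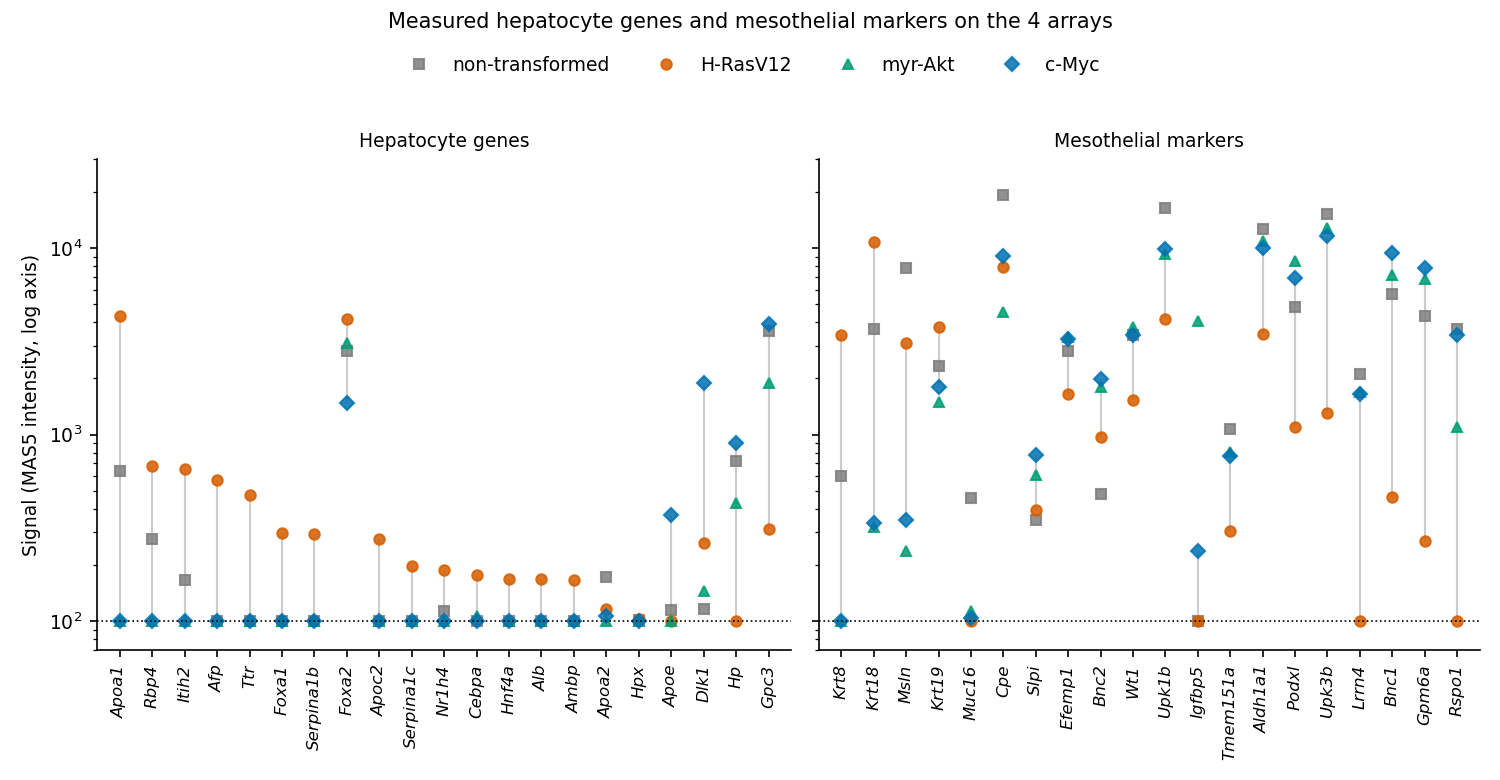
Signal of every measured hepatocyte gene (left) and mesothelial marker (right) on the 4 arrays (y axis, MAS5 intensity, log axis, floored at 100.001 along the dotted line), ordered by the difference between the arrays labelled H-RasV12 and c-Myc. Orange circles of 19 of the 21 hepatocyte genes lie above the floor against blue diamonds of 6, while 12 of the 20 mesothelial markers are lower there by at least 2-fold.

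Mesenchymal genes and transcription factors had 9 of 29 measured members higher and 4 lower (median 0.64), but 2 of 19 higher and 3 lower where both arrays were above the floor. Prrx1, a homeobox factor of mesenchyme, had 1932, 3046, 231 and 98.7 and was at least 30.5-fold higher. Snai2, which encodes the repressor SLUG, had 2382, 2982, 563 and 365 and was 8.18-fold higher by its brightest probe set, but 0.42 on the log2 scale by the next. Thy1 was at least 8.56-fold higher, Pdgfrb, a PDGF receptor, at least 5.55-fold and Twist2 at least 3.87-fold. The next probe set of Pdgfrb gave 0.11 on the log2 scale against 2.47. Tcf21 was at least 5.89-fold lower with 393, 41, 133 and 589, and Tbx18, Wt1 and Gata6, also found in mesothelium, were 2.67-fold, 2.25-fold and 2.13-fold lower. Of 8 stellate and pericyte markers measured, 5 were higher and 0 lower, but 6 of the 8 were at the floor on the array labelled c-Myc, and of the 2 above it on both arrays 1 was higher. They included Nes, which encodes nestin, at least 14-fold higher with 905, 1402, 26.3 and 30.1, and Rgs5, at least 3.56-fold. The summed signal of the stellate list was 5845 on the array labelled H-RasV12 and 2108 on that labelled c-Myc. The part of such cells in the matrix values given next was not tested.

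Other cell types left little signal. Of 22 endothelial markers with a probe set, 16 were at the floor on both arrays, among them Cdh5, Kdr and Pecam1. Esam, an adhesion molecule of endothelium and platelets, was at least 16-fold higher with 337, 1596, 70.9 and 65, the phosphatase gene Ptprb 7.43-fold and Flt1 at least 2.54-fold, while Egfl7 was 2.38-fold lower. The summed signal of the endothelial list was 4931 on the array labelled H-RasV12 and 1438 on that labelled c-Myc, and that of the macrophage list 989 and 448. Most of the endothelial sum with H-RasV12 came from Esam and Ptprb, with 1596.5 and 2115.8 there against 65 and 284.6 with c-Myc. Of 19 macrophage markers 16 were at the floor on both arrays, including Adgre1, Ptprc and C1qa, and Cd14 was 3.90-fold higher. Of 12 erythroid markers 11 were at the floor on both, and Epor alone was measured, with 120.4 against 24.9. Of 14 lymphoid and megakaryocyte markers 13 were at the floor on both, and Itga2b had 164 against 113.

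Genes of the extracellular matrix differed in both directions. Of 29 collagens and collagen-modifying enzymes measured, 11 were higher and 5 lower. Col7a1, the anchoring fibril collagen, had signals of 582, 1182, 114 and 42.3 and was at least 11.8-fold higher, Col15a1 at least 7.38-fold, and the procollagen-processing genes Bmp1 and Pcolce 7.18-fold and 7.06-fold. Col1a2, of the main fibrillar collagen, had 27502, 21412, 15479 and 3578 and was 5.99-fold higher, with the array labelled c-Myc the lowest of the 4, while its partner Col1a1 was 1.67-fold apart. Col3a1, also of a fibrillar collagen, went the other way from Col1a2. It had 20989.1, 5254.6, 15136.8 and 11166.5 and was 2.13-fold lower, and its next probe set gave -1.85 on the log2 scale against -1.09. Col6a1 and Col6a2, chains of one collagen, were 7.18-fold and 5.99-fold lower, with 4198, 652, 8128 and 4681 for Col6a1. Loxl1, a crosslinking enzyme, was 4.55-fold lower and the related Loxl3 6.79-fold higher.

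Matrix proteoglycans and glycoproteins had 10 of 35 higher and 8 lower, and 6 of 25 each way above the floor on both arrays. Vcan, which encodes versican, had 2238, 3906, 692 and 319 and was 12.2-fold higher, Ltbp1, which stores latent TGF-beta, was 10.5-fold higher, and Nid1 had 14087, 16995, 2223 and 2000.1 and was 8.50-fold higher. Nid1 was thus lowest with myr-Akt and c-Myc, whereas Nid2, its paralogue in basement membranes, had 3259, 232, 2029 and 4782 and was lowest with H-RasV12. Cemip, which takes part in hyaluronan breakdown, was 10.8-fold lower with 6198, 136, 1051 and 1464, and Prg4, which encodes lubricin, at least 11.2-fold. Has1, a hyaluronan synthase, was at least 3.68-fold higher.

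Extracellular proteases and their inhibitors leaned towards H-RasV12, with 12 of 25 higher and 2 lower (median 0.79), and 9 of 22 higher and 2 lower above the floor on both arrays. Adam19, a membrane metalloprotease, had 2229, 2711, 343 and 110.2 and was 24.6-fold higher. Timp1, an inhibitor of metalloproteases, had 13086, 15433, 2126 and 3007 and was 5.13-fold higher, Plat, the plasminogen activator of tissue type, 6.04-fold, and Mmp23 11.1-fold. The aggrecanase genes Adamts5 and Adamts1 were 4.59-fold and 2.43-fold lower. Of 10 integrins, 3 were higher and 0 lower: Itgb3 with 839.8, 1744, 278 and 172, 10.1-fold, Itga6, a laminin receptor subunit, 6.96-fold, and Itga5, a fibronectin receptor subunit, 5.32-fold. Among 25 actin cytoskeleton and smooth muscle genes, 5 were higher and 1 lower, from Actg2 at 2.95-fold and Myl9 at 2.80-fold to Mylk, the kinase of myosin light chains, 4.57-fold lower with 1658, 226, 299.9 and 1034. S100 proteins and annexins had 7 of 14 higher and 0 lower, among them S100a13 (6.61-fold), Anxa4 (3.90-fold) and Anxa8 (3.89-fold).

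Ligands of the TGF-beta family divided by member. Tgfb1 had signals of 1119.6, 1798, 50.8 and 126 and was 14.2-fold higher on the array labelled H-RasV12, while Tgfb2 had 1397, 434, 2458 and 1859 and was 4.29-fold lower. The next probe set of Tgfb1 gave 0.45 on the log2 scale against 3.83, that of Tgfb2 -2.04 against -2.10. Inhba, the activin subunit, had 1152, 1938, 184 and 149.6 and was 13-fold higher, and Gdf10 was at least 5.57-fold higher. Bmp4 and Bmp6 were 2.32-fold and 3.27-fold lower, as was Smad6, an inhibitor of BMP signals, by 3.15-fold, while the BMP antagonist gene Grem1 was at least 13.3-fold higher. The target gene Tgfbi was at least 30.5-fold higher with 1896, 3053, 73.2 and 73.9. In all, 10 of 26 measured members were higher and 5 lower, with a median of 0.25 that became -0.20 over the 22 members above the floor on both arrays. YAP and TEAD targets had 5 of 22 higher and 3 lower, with Ankrd1 at 10007, 16257, 2206 and 1586, 10.3-fold higher, and Lats2, a kinase that restrains YAP, 2.24-fold lower.

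WNT modulators divided likewise, with 5 of 27 higher and 6 lower, and 1 of 15 higher and 3 lower above the floor on both arrays (median -0.54). Dkk1, an antagonist, had 2688, 1621, 30.7 and 24.6 and was at least 16.2-fold higher, with Dkk3 at least 8.38-fold and Dkk2 at least 3.40-fold. The ligand gene Wnt5a had 1099.6, 1653, 315 and 86.6 and was at least 16.5-fold higher, and Wnt4 was 8.39-fold higher. Besides Rspo1, Rspo3 was 4.06-fold lower, the ligand gene Wnt9a at least 5.82-fold, and the secreted antagonists Sfrp1 3.26-fold and Sfrp2 at least 10.2-fold, with 29.3, 26.5, 150.3 and 1017 for Sfrp2. The Dkk genes named here were higher and the Sfrp genes named here lower on the array labelled H-RasV12. Of them, only Sfrp1 was above the floor on both arrays, so the directions of the others were fixed by the array that detected them. The target genes Axin2, Notum and Sp5 were at the floor on both arrays.

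Guidance and adhesion genes had 12 of 38 higher and 5 lower, and 10 of 30 higher and 4 lower above the floor on both arrays. Clmp, an adhesion molecule, was at least 12.9-fold higher with 246, 1294, 80.4 and 29.8, the protocadherin genes Pcdh9 and Pcdh17 11.5-fold and at least 7.00-fold, and Ntn4, which encodes a netrin, 8.20-fold. Sema3d, a semaphorin, was at least 8.37-fold lower with 857, 84.1, 1005 and 837, the ephrin gene Efna2 4.61-fold and the plexin gene Plxnb1 2.61-fold. Among 11 Hox genes measured, Hoxa9 was at least 3.97-fold and Hoxb6 at least 2.07-fold higher, and Hoxd8 at least 3.01-fold lower, all from dim signals on both arrays compared. Of 11 retinoid genes, 4 were higher and 1 lower, and of the 7 above the floor on both arrays 2 and 1. Crabp1, which binds retinoic acid in the cytosol, had 4928, 2421, 1.9 and 12.8 and was at least 24.2-fold higher, the retinol dehydrogenase gene Rdh10 was 4.34-fold higher, and Rarb, a receptor and target of retinoic acid, had 606, 401, 973 and 107 and was 3.75-fold higher. Aldh1a1, the member that was lower, is given above.

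Interferon response genes were often higher on the array labelled H-RasV12. Of 25 measured, 15 were higher and 0 lower with a median of 1.42, and of 10 above the floor on both arrays 5 were higher and 0 lower (median 0.89). Ifi27, an interferon-induced membrane protein, had signals of 3580.4, 2311, 159 and 67.4 and was at least 23.1-fold higher. Ifit1, a sensor of foreign RNA, had 1056, 470.2, 56.3 and 14.3 and was at least 4.70-fold higher, and Rsad2, the antiviral enzyme viperin, had 579, 699, 152 and 5.7 and was at least 6.99-fold higher. Xaf1 was at least 8.76-fold higher and Rtp4 at least 8.08-fold. The next probe set of Xaf1 gave 0.40 on the log2 scale against 3.13. For Ifi27, Ifit1, Xaf1 and Rtp4 non-transformed cells had the highest signal, the array labelled H-RasV12 the next, and the array labelled c-Myc lay under the floor. The summed signal of the list was 26863 in non-transformed cells, 14636 with H-RasV12, 5701 with myr-Akt and 5649 with c-Myc. Irf1, singled out after its value was seen, was the 1 member with a negative difference, at -0.96. Macrophage and lymphoid markers, given above, were mostly at the floor on both arrays. Antigen presentation had 1 of 8 measured members past 2-fold, the class I gene H2-D1, which was 2.65-fold higher and belongs to a family of near-identical genes, so that its value is uncertain.

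Cytokines and chemokines ran both ways, with 7 of 21 higher and 4 lower, and 3 of 13 each way above the floor on both arrays. Besides Il33 and Il11, Cx3cl1, the membrane-bound chemokine fractalkine, had 552, 2057, 26.4 and 36.4 and was at least 20.6-fold higher, though its next probe set gave 0.70 on the log2 scale. Cxcl12, which attracts cells bearing CXCR4, had 12667, 7794, 2755 and 1657 and was 4.70-fold higher, and Il6 was at least 2.49-fold higher. Cxcl1, which attracts neutrophils, had 1889, 321, 1848 and 2204 and was 6.87-fold lower. Ccl2, which attracts monocytes, had 5482, 1066, 4692 and 4057 and was 3.81-fold lower, Ccl20 at least 4.85-fold and Ccl7 2.14-fold. The 4 chemokines that were lower had their lowest signal of the 4 arrays with H-RasV12. Complement and acute-phase genes were lower in 5 of 12 measured members and higher in 1, and in 3 and 1 of the 7 above the floor on both arrays. Saa3 had 7786, 221, 3169 and 4052. Of the complement protease genes, C1s1 was 3.73-fold and C1ra at least 2.25-fold lower, and Hp was at least 8.96-fold lower with 720.0, 24.3, 431 and 896. Clu, which encodes the chaperone clusterin, was the member that was higher, 12.1-fold with 4733, 8919, 464 and 738.

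Regulators of chromatin had 0 of 17 measured members higher, 2 lower and a median of -0.42. Dnmt3b, a de novo DNA methyltransferase, had 62.2, 94.4, 283 and 272 and was at least 2.72-fold lower, and Cbx2, a Polycomb subunit, had 275, 242, 487 and 598 and was 2.47-fold lower. The maintenance methyltransferase gene Dnmt1 had 3986 against 3942, within 2-fold. Amino acid transporters had 2 of 19 higher and 1 lower, with a median of 0.00, and Slc1a3, a glutamate carrier, was at least 3.89-fold lower.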

How the data were processed

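The deposited values are MAS5 intensities of 4 Affymetrix mouse arrays, 1 per group, computed by the authors per the submitters' processing notes. The version of MAS5, detection calls and filters were not stated there. The 2% trimmed mean of the deposited intensities was 500.003 on every array, so no further scaling was done. Intensities were floored at 20% of it (100.001) and taken to log2, and each log2 difference of the deposited intensities is the array labelled H-RasV12 minus that labelled c-Myc. Of 45101 probe sets, 34945 had a single gene symbol in the platform annotation, 932 several, 9160 none and 64 were controls. The symbols of 34741 matched the RefSeq table of GRCm38.p6, and 0 were updated. A gene was read from its probe set with the highest mean over the 4 arrays.

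Called means at least 2-fold. Genes were named by rule: the 15 largest differences each way above the floor on both arrays, the 6 brightest at the floor on 1, up to 5 members past 2-fold per list and direction, up to 2 of the brightest where a list had none, and the MYC network. Left out were clone-named genes and genes whose next probe set differed by 2-fold the other way. Named outside the rule, after their values were seen, were Alb, Hnf4a, Egfr, Met, Tgfa, Dusp5, Cd44, Etv5, Rasgef1b, Egr1, Fos, Jun, Klf6, Dusp1, the Sprouty genes, Col1a1, Col1a2, Podxl, Upk1b, Krt20, Polr1b, Utp15, Dnmt1, Vegfa, Lif and Irf1, genes mentioned as at the floor on both arrays, and the sex-linked genes. The comparison and the 51 lists were chosen with earlier results of these data known. Alternatives were other floors, a pseudocount, other rules for probe sets, quantile scaling and median centring. Since each group holds 1 array, their number limits the precision and no p-value was computed. Counting was checked on simulated signals. Python 3.11.15, pandas 2.3.3, numpy 2.4.6 and matplotlib 3.10.9 were used.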

Additional observations from a re-analysis of the deposited data

How the results depend on the processing

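The counts of 936 higher and 546 lower genes moved most with the treatment of dim genes. They were 1227 and 659 with the floor at 10% of the trimmed mean, 673 and 441 with it at 40%, and 608 and 434 with only genes above the floor on both arrays, where fewer genes were counted. A pseudocount in place of the floor gave 861 and 408, the mean over probe sets 874 and 487, probe sets of the plain type alone 780 and 475, quantile scaling 892 and 591, and centring 1000 and 505. The higher genes made up 58.3% to 67.8% of those past 2-fold, against 63.2% as reported. Of 260 named genes past 2-fold, 46 came under it in at least 1 alternative and 0 changed sign; among them were E2f2, Mxd4, Stard4, Dnmt3b, Slc7a11 and Bbc3, most of them dim. List medians that changed sign with only genes above the floor on both arrays were those of hepatocyte genes (0.91 to -1.36), TGF-beta genes (0.25 to -0.20), epithelial genes (0.27 to -0.07), sex-linked genes (-0.02 to 0.16) and amino acid transporters (just below 0 to 0.03). No paired analysis was possible because each group holds 1 array, and no replicate could be left out. A signal close to the floor limits every dim gene.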

Other observations

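Probe sets that the annotation ties to no gene or to several were set apart from the comparison. Of these, 2564 were above the floor on at least 1 of both arrays, and 200 were at least 2-fold higher on the array labelled H-RasV12 (7.80%) and 117 lower (4.56%), close to the shares of single-gene probe sets.

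Sex-linked genes showed no 2-fold difference between both arrays. Xist, the RNA that silences an X chromosome, had signals of 6070.0, 6249, 559.5 and 4209 on the non-transformed, H-RasV12, myr-Akt and c-Myc arrays. The Y-linked gene Eif2s3y had 534.5, 559, 945 and 643, and the Y-linked gene Kdm5d had 318, 291, 366 and 259.7. Signals of both kinds thus stood on all 4 arrays, and Xist was lowest with myr-Akt, which the comparison does not use.

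Brightness and direction were counted in 3 classes by the higher of both signals, divided at 500 and 2000. Of 3094 dim genes, 326 were higher on the array labelled H-RasV12 and 154 lower. The middle class held 4170 genes with 380 higher and 258 lower, and the bright class 3010 genes with 230 higher and 134 lower. Higher genes outnumbered lower ones in every class.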
